A study of Mus musculus with 12 samples.

Results

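The genes described are 7 ion channel genes, Piezo1, Piezo2, Cacna1h, Cacna1c, Kcnt2, Kcnq5 and Gria3, and the accessible regions that the deposited ATAC-seq table lists with them. ATAC-seq reads open chromatin through cuts made by the Tn5 transposase. Of the 81995 regions in the table, 10 are listed with these genes: 3 each with Piezo1 and Cacna1h and 1 each with Piezo2, Kcnt2, Kcnq5 and Gria3. Cacna1c has none, so 6 of the 7 genes could be read at a start site region, taken as the region whose centre lies nearest the gene's start. The genes were picked because the group means of their regions differed between the lines. Those values are therefore given as a description with no test.

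All 12 libraries came from NIH/3T3, an immortal mouse fibroblast line, grown with no stated treatment, and each of the 4 groups had 3 samples. The first, WT, carries intact Actg1, the cytoplasmic gamma-actin gene. PTC1 cells carry a 1 nt insertion of T after coding position 280 of Actg1, on one allele alone and on the other beside the substitution A280G, with a premature stop in exon 3. PTC2 cells carry a 4036 nt insertion after position 1096 of the Actg1-202 transcript, with the premature stop in exon 5, and LD cells lack the full Actg1 locus. The labels name neither separate clones of an allele nor separate cultures, so errors and p-values measure only the spread between these samples, which may be technical. Values given are normalized read counts (read counts scaled by 1 factor per library and rounded by the authors), and ± is the SD of 3 libraries.

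Ion channels are membrane proteins that open a pore for selected ions. Piezo channels are trimers gated by membrane stretch. Voltage-gated calcium channels carry calcium into a cell when the membrane depolarises, the Kcn proteins pass potassium and set the resting potential, and the AMPA receptor subunit made by Gria3 answers to glutamate. Fibroblasts are not electrically excitable cells, but Piezo channels serve them in sensing stiffness and shear. Chromatin accessibility at a gene does not give its mRNA level, which was not measured in these libraries.

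The start sites differ in their sequence as well. RefSeq (GRCm38.p6, the assembly behind mm10) gave promoter windows, from 250 bases before to 50 after an annotated start, for Piezo1, Kcnt2, Kcnq5 and Cacna1c. The windows below are those that overlap an accessible region, shown because they are the openings whose levels are compared. Capitals mark the GC box (GGGCGG), the CCAAT box (CCAAT) and the TATA box (TATAAA), searched on both strands, and runs of overlapping GC boxes are joined.
Piezo1, chr8:122551280-122551579, minus strand: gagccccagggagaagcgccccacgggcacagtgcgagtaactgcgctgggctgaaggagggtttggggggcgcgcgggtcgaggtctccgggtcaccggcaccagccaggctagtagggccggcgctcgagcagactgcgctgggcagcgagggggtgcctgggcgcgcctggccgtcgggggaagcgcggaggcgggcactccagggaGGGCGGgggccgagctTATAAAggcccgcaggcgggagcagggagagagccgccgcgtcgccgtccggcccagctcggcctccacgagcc
Kcnt2, chr1:140245468-140245767, plus strand: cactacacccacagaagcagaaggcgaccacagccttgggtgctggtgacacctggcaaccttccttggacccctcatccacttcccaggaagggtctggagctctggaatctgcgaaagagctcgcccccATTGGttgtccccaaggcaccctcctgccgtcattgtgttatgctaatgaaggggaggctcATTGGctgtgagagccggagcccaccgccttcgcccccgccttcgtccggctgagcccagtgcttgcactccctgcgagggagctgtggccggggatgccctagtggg
Kcnq5, chr1:21961893-21962192, minus strand: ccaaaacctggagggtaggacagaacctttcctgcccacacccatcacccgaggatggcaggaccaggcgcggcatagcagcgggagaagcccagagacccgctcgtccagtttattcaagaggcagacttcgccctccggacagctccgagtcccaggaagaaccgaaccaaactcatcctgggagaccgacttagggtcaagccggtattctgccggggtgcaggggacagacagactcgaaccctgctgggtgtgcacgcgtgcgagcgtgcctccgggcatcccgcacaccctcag
Cacna1c, chr6:119108446-119108745, minus strand: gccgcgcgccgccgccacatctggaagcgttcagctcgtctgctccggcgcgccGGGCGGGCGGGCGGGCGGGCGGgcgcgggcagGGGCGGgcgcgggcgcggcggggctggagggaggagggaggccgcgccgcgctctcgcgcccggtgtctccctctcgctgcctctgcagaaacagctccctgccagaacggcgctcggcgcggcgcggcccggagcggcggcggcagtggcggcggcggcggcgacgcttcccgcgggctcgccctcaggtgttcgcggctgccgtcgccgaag
The Piezo1 window holds 34 CpG dinucleotides, more than 92.2% of the 32544 RefSeq promoter windows, and a GC box and a TATA box just before the start. The Cacna1c window holds 57 CpGs, more than 99.8% of windows, and 6 GC boxes, some of which overlap. Kcnq5 and Kcnt2 hold 20 and 12 CpGs, against a median of 7 over all windows. Kcnt2 has 2 CCAAT boxes on the reverse strand (shown as attgg in capitals) and Kcnq5 none of the 3 motifs. For comparison, a GC box occurs in 35.9% of all windows, a CCAAT box in 37.4% and a TATA box in 13.6%. The AP-1 motif (TGANTCA), the CRE (TGACGTCA), the E-box (CACGTG), the TEAD motif (GGAATG) and the palindromic NRF1 motif were in none of the 4 windows, and occur in 7.79%, 1.8%, 7.17%, 14.6% and 0.974% of all windows. The accessible region covers all 300 bases of the Piezo1, Kcnt2 and Cacna1c windows and 166 bases of the Kcnq5 window.

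Across libraries, normalized read counts summed to 31.29 to 34.8 M. The scale recovered from the gaps in the whole numbers gave an estimated 30.35 to 32.91 M reads in regions for WT, 30.32 to 35.14 for PTC1, 35.81 to 44.98 for PTC2, the deepest group, and 25.03 to 33.33 for LD. Of 10 fibroblast marker genes 9 had a region (all but Dcn), with summed levels of 11534 to 12231 for WT, 10679 to 10888 for PTC1, 11609 to 12426 for PTC2 and 10540 to 10980 for LD. The median fibroblast marker was at 892 for WT, 593.7 for PTC1, 985 for PTC2 and 890.7 for LD. Of 8 neuron markers 5 had a region (not Rbfox3, Nefl and Elavl4), summing to 1949 to 2068, 2178 to 2249, 1996 to 2158 and 2151 to 2244 in the same order. The median neuron marker differed more between lines than the sum, at 116.7 for WT, 464 for PTC1, 30.67 for PTC2 and 481.3 for LD. Of 6 skeletal muscle markers 4 had a region (not Myog and Myf5), at 157 to 214, 256 to 313, 250 to 275 and 188 to 217. Of 3 blood markers Ptprc and Spi1 had a region and Cd3e none, and they summed to 532 to 603, 348 to 422, 370 to 384 and 516 to 584. Of 4 epithelial markers only Krt8 had a region, at 416 to 457, 339 to 433, 371 to 420 and 326 to 349. Of 3 endothelial markers all but Pecam1 had one, summing to 139 to 199, 173 to 197, 161 to 197 and 115 to 134. The part of these shifts in the channel values was not tested. Among the regions analysed here 0 lie within 5 kb of Actg1, so the labels were not checked against the targeted gene.

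The lines departed from WT at different but overlapping sets of channel genes. By read count, Piezo2 was very low in PTC1, Cacna1h was high in PTC2, and Kcnt2 was very low in PTC2 and less so in PTC1. Kcnq5 was higher in both premature stop lines and lower in LD, and Gria3 was very low in both premature stop lines. The part of DNA copy number in these levels was not tested. Piezo1 was open at a like level in all 4 groups. The range between the highest and lowest group mean, on the log2(value + 1) scale, was 5.06 at Piezo2, 4.96 at Kcnq5, 4.82 at Kcnt2, 3.82 at Cacna1h and 3.47 at Gria3. Each of these exceeded the range at 97.8% or more of the 12338 genes with a region. Piezo1, with 0.27, exceeded 20.5%.

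**Figure D1:**
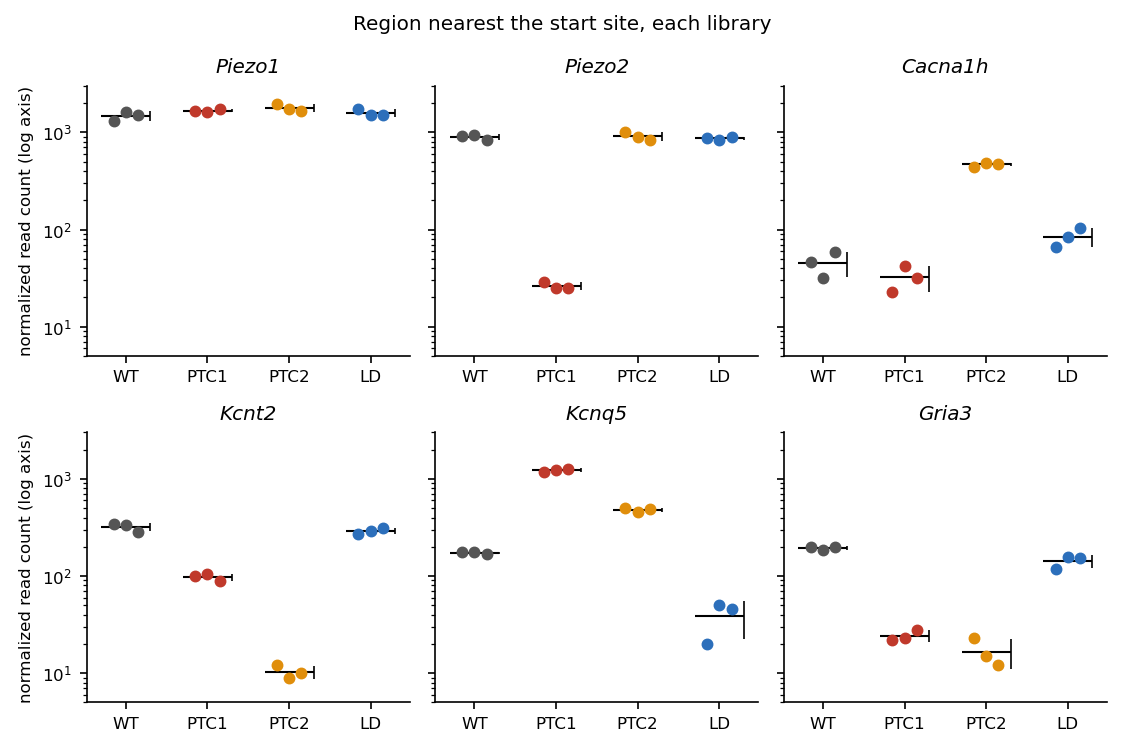
Normalized read count (log axis) at the region nearest the start site of 6 channel genes in each library (points), with the group mean (horizontal line) and SD (vertical line, n = 3). Piezo1 stays between 1309 and 1981 in all 12 libraries, while Piezo2 drops to 25 to 29 in PTC1, Cacna1h reaches 445 to 484 in PTC2 and Kcnt2 drops to 9 to 12 in PTC2.

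Many genes differed between these lines. By limma (adjusted p under 0.05), 61.8% of 12337 genes read at the start site region were called in PTC1, 53.8% in PTC2, 46.4% in LD and 67% between the mean of the premature stop lines and LD. The comparisons with WT share the same 3 WT libraries. No count of calls is given for the start site regions of the 6 channels, which were chosen on these values. Counts of other regions in and around the genes are a description too, set beside the share of all regions called. In counts of regions or genes, higher, lower, rose and fell mean called by limma at that threshold.

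Piezo1 (ENSMUSG00000014444) encodes the widely expressed stretch-gated channel of endothelium, red cells and fibroblasts. Its start site region (mm10 chromosome 8, 122550724 to 122551778, lying 78 bp from the start by its centre) read 1309, 1635 and 1510 for WT, 1653, 1621 and 1738 for PTC1, 1981, 1742 and 1663 for PTC2 and 1741, 1508 and 1510 for LD. The PTC2 libraries lay above all WT libraries, and those of PTC1 and LD overlapped WT. The group means of Piezo1 were 1485 ± 164 (n = 3) for WT, 1671 ± 60.5 for PTC1, 1795 ± 166 for PTC2 and 1586 ± 134 for LD. The log2 differences from WT were 0.18, 0.28 and 0.10, and centring on regions within 1 Mb turned them to -0.23, -0.088 and -0.031, while the same on chromosome 8 left 0.0062, 0.049 and 0.015. The gene lies in a dense neighbourhood: 86 other regions within 500 kb had a median log2 difference of 0.43 for PTC1, 0.38 for PTC2 and 0.12 for LD. The nearest listed neighbour, the replication licensing gene Cdt1 at 16.4 kb, was at 2727 ± 162 in WT, and at 3407 ± 112 in PTC1 and 3364 ± 131 in PTC2 (log2 0.32 and 0.30, limma adjusted p = 3.35e-06 and 9.2e-06), differences that 1 Mb centring turned to -0.081 and -0.06.

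The other Piezo1 regions separated the lines a little more clearly. Inside the gene (122548718 to 122549573, 2183 bp from the start) WT read 2427, 2491 and 2480, PTC1 2660, 2640 and 2725, PTC2 2621, 2813 and 2700, and LD 2365, 2230 and 2376. Both premature stop lines lay above every WT library and LD below, although the log2 differences were 0.12, 0.14 and -0.09. The upstream region (122555914 to 122556970, 5113 bp from the start) read 1416 to 1536 for WT, 2096 to 2316 for PTC1, 1897 to 2111 for PTC2 and 1321 to 1454 for LD. Here the premature stop lines stood 1.49-fold and 1.37-fold above WT by their means, while LD overlapped WT. Of 3 weaker regions in the Piezo1 body with no listed gene, the one 14.1 kb downstream of the start (122537027 to 122537412) had means of 11.33 for WT, 26.67 for PTC1, 72.33 for PTC2 and 40.33 for LD.

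Piezo2 (ENSMUSG00000041482) encodes the stretch-gated channel that serves touch and body position sense in sensory neurons. Its only listed region (chromosome 18, 63386087 to 63387439, 420 bp from the start) read 923, 946 and 835 for WT, 29, 25 and 25 for PTC1, 1014, 888 and 839 for PTC2 and 881, 838 and 893 for LD. The 3 PTC1 libraries were far below all 9 others, and PTC2 and LD overlapped WT. The WT mean was 34.2-fold that of PTC1, and PTC2 and LD stood at 1.01-fold and 0.966-fold of WT. In WT this Piezo2 region was higher than the start site region of 46.9% of genes, and in PTC1 than that of 4.6%.

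The Piezo2 body of 377 kb held 10 regions with no listed gene, and all 10 were lower in PTC1 than in WT, at log2 differences of -3.61 to -0.39 with a median of -1.35. Of all tested regions 61.8% were called in PTC1 and 31.2% were lower. The start site, at -5.05, was lower than any of them. In the other lines 3 of the 10 were called higher and 3 lower in PTC2, and 3 higher and 2 lower in LD (58.2% and 47.4% of all regions called). A region 237 kb downstream of the start (63150077 to 63151148) read 202, 172 and 199 for WT, 43, 49 and 24 for PTC1, 563, 549 and 539 for PTC2 and 435, 436 and 469 for LD, so that it was lower in PTC1 and higher in PTC2 and LD. A region 330 kb downstream (63056919 to 63057669) had means of 285.3 ± 51.4 for WT, 124 ± 11.8 for PTC1, 82.33 ± 16 for PTC2 and 94 ± 25.2 for LD, lower in all 3 mutants.

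Around Piezo2, 37 regions within 500 kb had median log2 differences of -0.90 for PTC1, -0.36 for PTC2 and -0.42 for LD, and chromosome 18 as a whole had medians of -0.45, -0.28 and -0.55. The part of the chromosome level in the Piezo2 values was not tested beyond centring, under which the PTC1 difference was -4.58 (chromosome) and -4.51 (1 Mb), and the PTC2 and LD differences 0.33 to 0.36 and 0.29 to 0.49. The nearest genes with a named start site region lay 322 and 409 kb away. Txnl1, a thioredoxin family gene, had 668.7 ± 25.4 in WT and 428.7 ± 24.9 in LD (log2 -0.64, limma adjusted p = 8.09e-07), a call lost after chromosome centring, at -0.10, and kept under 1 Mb centring, at -0.28. Napg, a vesicle fusion adaptor gene, read 918 for WT, 749 for PTC1, 779.3 for PTC2 and 619.7 for LD, and its lower values in PTC1 and PTC2 turned sign under either centring.

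Cacna1h (ENSMUSG00000024112) encodes the pore of a T-type calcium channel, which opens at small depolarisations. The start site region (chromosome 17, 25433441 to 25434308, 92 bp from the start) read 46, 32 and 58 for WT, 23, 42 and 32 for PTC1, 445, 484 and 477 for PTC2 and 66, 83 and 104 for LD. All PTC2 libraries were above every other library, LD lay above WT without overlap, and PTC1 overlapped WT. The PTC2 mean was 10.3-fold, the LD mean 1.86-fold and the PTC1 mean 0.713-fold that of WT. A second Cacna1h region (25431634 to 25432068, 1932 bp inside) read 18 to 27 for WT, 9 to 30 for PTC1, 211 to 247 for PTC2 and 17 to 55 for LD. The third (25429285 to 25429539, 4371 bp inside) read 1, 13 and 13 for WT, 25, 17 and 40 for PTC1, 122, 138 and 154 for PTC2 and 21, 31 and 21 for LD. There PTC1 and LD also lay above WT, at levels under 50.

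The higher PTC2 values reached into the body of the 59.5 kb gene, in regions up to 35.7 kb from the start. All 5 Cacna1h body regions with no listed gene were higher in PTC2, at log2 differences of 0.84 to 3.49. Of all tested regions 58.2% were called in PTC2 and 28.4% were higher. The farthest Cacna1h regions, at 33.2 and 35.7 kb, were at 0.89 and 0.84 in PTC2 and at 0.86 and 0.26 in PTC1. A region 24 kb downstream of the start (25409564 to 25409988) read 36, 50 and 55 for WT, 91, 69 and 93 for PTC1, 551, 490 and 555 for PTC2 and 112, 143 and 136 for LD. The one with the highest WT level, 22.7 kb downstream (25410623 to 25411560), went from a mean of 152.7 ± 11.1 in WT to 921.3 ± 89.2 in PTC2, with 182.3 ± 38.7 in PTC1 and 236.7 ± 36.2 in LD.

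The 91 other regions within 500 kb of the Cacna1h start had median log2 differences of 0.38 for PTC1, 0.32 for PTC2 and 0.23 for LD, against 3.38 at the start site in PTC2. The 43 of them within 250 kb had a median of 0.84 in PTC2. The neighbour Tekt4, a gene of sperm flagella 16.7 kb upstream, rose in PTC2 from 11 ± 6.24 to 32.33 ± 3.21 (log2 1.60, SE 0.426, limma adjusted p = 0.00203), and by 1.05 with a pseudocount of 10. Tpsg1, a mast cell tryptase gene, lies 61.2 kb away beyond the 3′ end of Cacna1h. From 87.67 ± 22 in WT, Tpsg1 rose to 324 ± 51 in PTC2 (log2 1.89, adjusted p = 1.97e-11). Its PTC1 level was 206.3 ± 23.1 (log2 1.25, adjusted p = 6.66e-08). Its LD level was 132.3 ± 15 (log2 0.61, adjusted p = 0.00199). In PTC1 Cacna1h was not higher at the start site (log2 -0.48) or 1932 bp inside (-0.37). It was higher in PTC1 4371 bp inside (log2 1.87). The 5 Cacna1h body regions with no listed gene had PTC1 log2 differences of 0.24 to 0.86. Of these 3 were called higher, as were 30.6% of all tested regions. Sox8, a neural crest factor gene 137 kb upstream, fell in PTC1 (log2 -0.95, adjusted p = 2.86e-05) and rose in PTC2 and LD (0.60 and 0.87, adjusted p = 0.00466 and 0.000166). The PTC2 call of Sox8 was lost under 1 Mb centring, at 0.31.

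Cacna1c encodes the pore of the L-type calcium channel of heart and smooth muscle. With no listed region, it was read through 38 regions with no listed gene inside its RefSeq span (chromosome 6, 118587240 to 119197384, 610 kb, GRCm38.p6). In PTC1, 4 of these were higher and 16 lower, in PTC2 9 and 12, and in LD 5 and 15, shares of 52.6%, 55.3% and 52.6% called. Over all tested regions 61.8%, 58.2% and 47.4% were called. The region over an annotated RefSeq start (119107342 to 119109428), which holds the window printed above, read 1448, 1708 and 1700 for WT, 1366, 1525 and 1639 for PTC1, 1878, 1637 and 1814 for PTC2 and 1587, 1484 and 1365 for LD. All 3 mutant groups overlapped WT there, with log2 differences of -0.10, 0.14 and -0.13. No region overlapped the windows of the other RefSeq starts of Cacna1c (119196360 to 119196659 and 118757925 to 118758224).

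Single regions inside Cacna1c went in opposite directions in different lines. At 118825407 to 118826008 WT read 341, 322 and 375, PTC1 125, 99 and 131, PTC2 804, 764 and 903, and LD 213, 161 and 206. PTC2 was above and PTC1 and LD below every WT library. At 119051587 to 119053653 the means were 587 ± 34.5 for WT, 344.3 ± 37.4 for PTC1, 988.3 ± 33.7 for PTC2 and 1132 ± 19.3 for LD. At 118621557 to 118622305, near the 3′ end, they were 568.3 ± 118 for WT, 840.3 ± 18.5 for PTC1, 273.3 ± 29.2 for PTC2 and 552 ± 32.1 for LD. The Cacna1c region with the highest WT level (118983823 to 118984916) was lower in all 3 mutants, at 1914 ± 110 in WT against 1596 ± 28.4, 1357 ± 130 and 1409 ± 41.7. On chromosome 6 as a whole the median log2 difference was 0.20 for PTC1, 0.08 for PTC2 and -0.35 for LD.

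**Figure D2:**
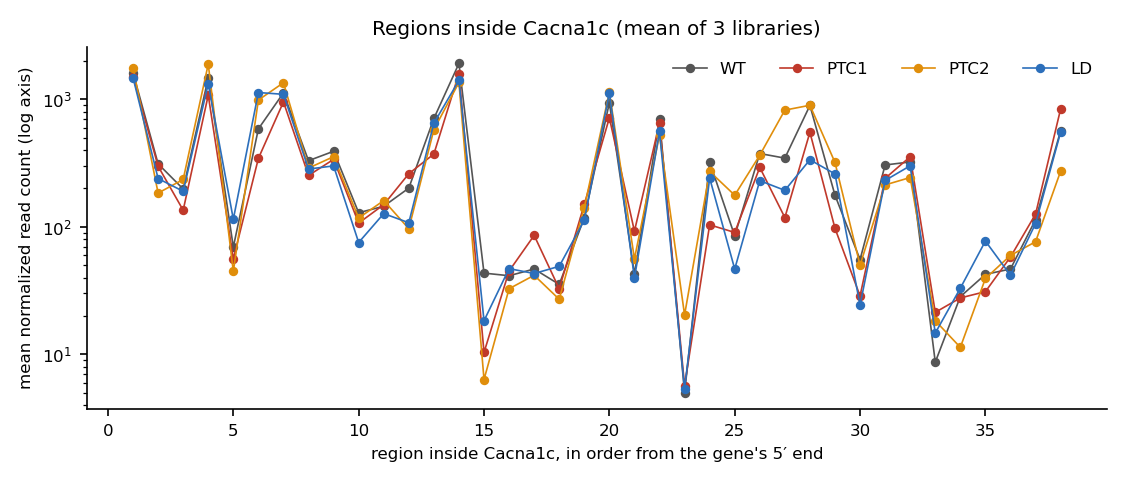
Mean normalized read count (log axis, 3 libraries per group) at the 38 regions inside Cacna1c that are listed with no gene, in order from the 5′ end of the gene. The first region, over an annotated start, lies at 1479 to 1776 in all 4 groups, while others such as the one with 118.3 in PTC1 and 823.7 in PTC2 differ between lines.

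Kcnt2 (ENSMUSG00000052726) encodes a potassium channel that opens with intracellular sodium. Its region (chromosome 1, 140245406 to 140246291, 309 bp from the start) read 339, 337 and 283 for WT, 99, 104 and 89 for PTC1, 12, 9 and 10 for PTC2 and 273, 294 and 312 for LD. PTC1 and PTC2 lay below every WT library and did not overlap each other, and LD overlapped WT. WT was 3.28-fold above PTC1 and 30.9-fold above PTC2 by the means, and the PTC1 mean was 9.42-fold that of PTC2. The PTC2 libraries were the deepest group by estimated reads. Centring on regions within 1 Mb moved the log2 difference of Kcnt2 from -1.70 to -1.07 in PTC1 and from -4.83 to -3.38 in PTC2.

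In PTC2 the regions around the Kcnt2 start were low as well. The body region 60.3 kb downstream (140306147 to 140306739) read 271, 211 and 265 for WT, 372, 339 and 278 for PTC1, 6, 10 and 4 for PTC2 and 192, 196 and 203 for LD. The one 183 kb downstream (140429258 to 140429668) read 127 to 140 for WT, 77 to 91 for PTC1, 0 to 2 for PTC2 and 91 to 107 for LD. With these 2 included, the 4 regions within 500 kb had a median log2 difference of -4.60 in PTC2 and 0.05 in PTC1. In PTC1, 1 of these 4 was called higher and 1 lower than WT, where 30.6% and 31.2% of all tested regions were.

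Kcnq5 (ENSMUSG00000028033) encodes a subunit of the slow potassium current known as the M-current, present in neurons and smooth muscle. Its region (chromosome 1, 21960398 to 21962058, 714 bp from the start) read 176, 175 and 169 for WT, 1180, 1248 and 1273 for PTC1, 505, 458 and 484 for PTC2 and 20, 50 and 46 for LD. None of the 4 groups overlapped another. The order of the means was PTC1 (7.12-fold WT), PTC2 (2.78-fold WT), WT and LD (0.223-fold WT), and PTC1 stood 31.9-fold above LD. LD replicate 1, at 20, was the lowest library, and the LD log2 difference ran from -2.47 to -1.83 when a library was left out. Centring on regions within 1 Mb moved the PTC1 difference of Kcnq5 from 2.82 to 1.88.

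Regions along the 564 kb Kcnq5 gene were higher in PTC1 and lower in LD as well. Of 11 body regions with no listed gene, 10 were called higher in PTC1 (30.6% of all tested regions), 10 lower in LD (24.7%) and 5 higher in PTC2 (28.4%). In either direction 61.8%, 47.4% and 58.2% of all regions were called in PTC1, LD and PTC2. Median log2 differences in the body were 2.82 for PTC1, 0.60 for PTC2 and -2.04 for LD. A region 125 kb downstream of the start (21836385 to 21836753) read 72, 75 and 76 for WT, 460, 484 and 480 for PTC1, 94, 116 and 123 for PTC2 and 6, 4 and 6 for LD. Another at 297 kb (21665133 to 21665449) read 3 to 10 for WT, 96 to 119 for PTC1, 2 to 10 for PTC2 and 0 to 2 for LD, with PTC1 above and LD below every WT library and PTC2 overlapping WT. Against LD, the mean of the premature stop lines was higher at all 11, where 64.8% of all regions were called and 32.1% were higher.

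Gria3 (ENSMUSG00000001986) encodes an AMPA-type glutamate receptor subunit of fast excitatory synapses. Its region (chromosome X, 41401517 to 41402445) lies wholly inside the gene, 1127 bp from the start. It read 198, 185 and 201 for WT, 22, 23 and 28 for PTC1, 23, 15 and 12 for PTC2 and 119, 158 and 153 for LD. The premature stop lines overlapped each other and lay below all other libraries, and LD lay below WT without overlap. WT was 8-fold above PTC1 and 11.7-fold above PTC2 by the means. The LD log2 difference of -0.45 was within a chromosome whose median in LD was -0.52, and chromosome and 1 Mb centring turned it to 0.049 and 0.11. The X chromosome medians in PTC1 and PTC2 were -0.11 and -0.27.

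No other region lay in the Gria3 body, and the 4 other regions within 500 kb were all lower in PTC1 and in PTC2, with median log2 differences of -3.09 and -3.41 and -0.50 in LD. At Gria3 the start site itself stood at -2.96, -3.52 and -0.45. At Kcnq5 the 13 regions within 500 kb had medians of 2.49, 0.73 and -1.96 in PTC1, PTC2 and LD. The Kcnq5 start site stood at 2.82, 1.47 and -2.24. Most of these 13 regions lie inside the gene. Those outside it, all upstream, had LD log2 differences of -0.12, 1.1 and -0.27. In PTC1 the same upstream regions stood at 1.85, 1.94 and 2.45, and in PTC2 at -1.24, 0.89 and 0.91. At Piezo2 in PTC1 and Cacna1h in PTC2 the start site differed by a log2 of -5.05 and 3.38 and the regions within 500 kb by medians of -0.90 and 0.32. Over the 6 windows together, 235 regions were tested, of which PTC1 had 124 higher and 53 lower (75.3% called, against 61.8% of all regions), 112 and 42 differed so in PTC2 (65.5% against 58.2%) and 64 and 42 in LD (45.1% against 47.4%). The shares of all regions higher and lower were 30.6% and 31.2% for PTC1, 28.4% and 29.8% for PTC2, and 22.6% and 24.7% for LD. Between the premature stop lines and LD 103 were higher and 54 lower (66.8%, against 64.8% of all regions, 32.1% higher and 32.6% lower). Most of these regions lie around Piezo1 and Cacna1h.

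**Figure D3:**
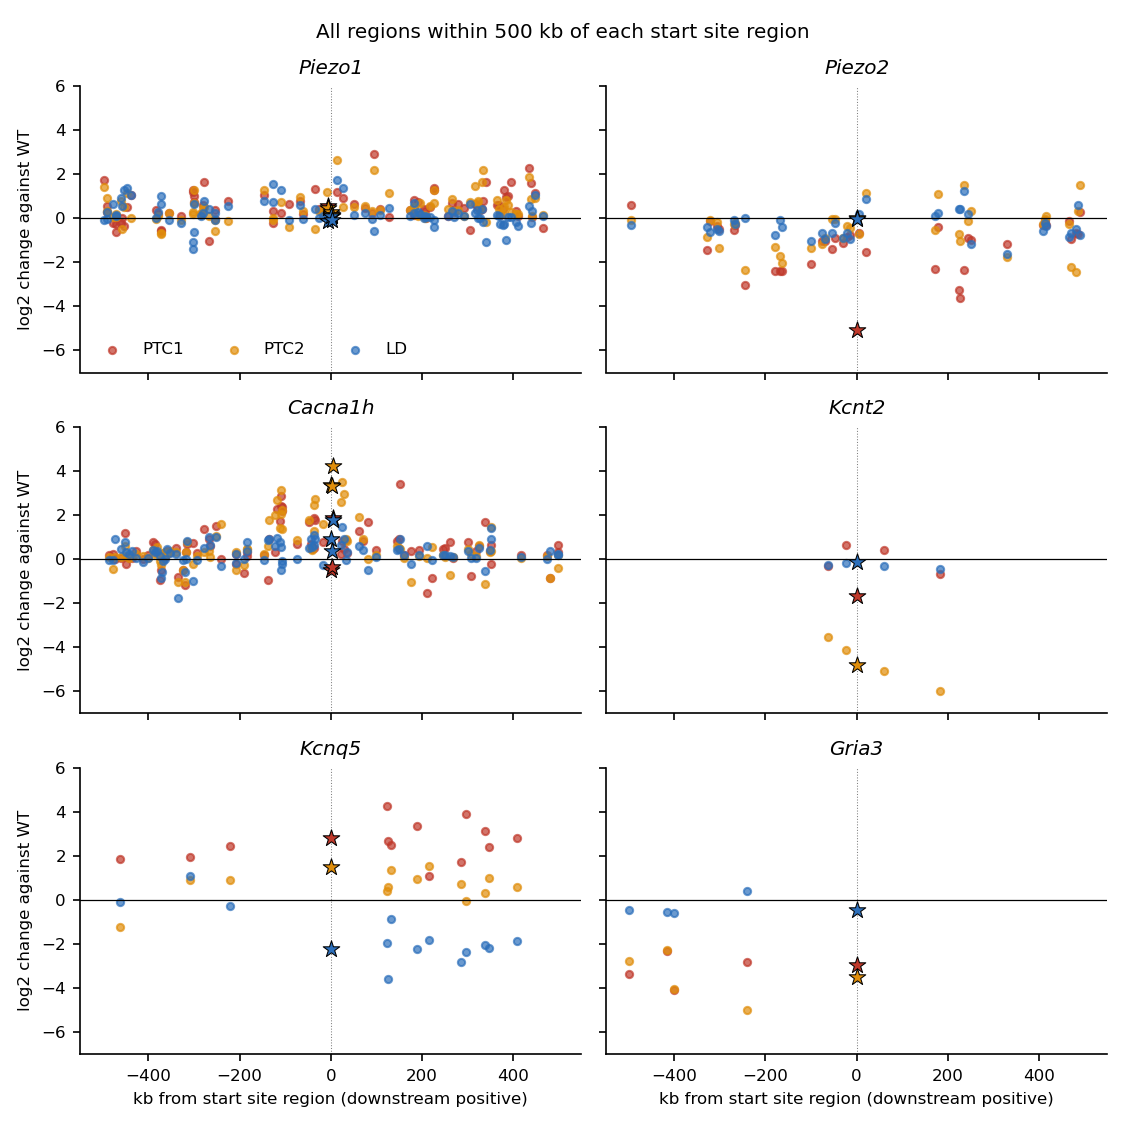
Log2 change against WT of every tested region within 500 kb of each start site region, by distance in kb (downstream of the gene positive), with stars for regions listed with the gene and points for others. Points lie on the side of the stars at Gria3 in PTC1 and PTC2 and at Kcnt2 in PTC2, whereas the PTC1 star of Piezo2 at -5.05 lies below all its points and the PTC2 stars of Cacna1h at 3.31 to 4.24 lie above most of theirs.

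The start site profiles of the channels were set beside those of 12068 other genes by the root-mean-square difference of log2(value + 1) over the 12 libraries, each region centred on its own mean. Closest to Piezo2 was Sema3d, a secreted guidance factor gene, at 0.254, with 667.7 for WT, 28.33 for PTC1, 716.7 for PTC2 and 726 for LD. Znf704 and Akip1 followed at 0.271 and 0.277, against a median of 2.21 over all genes. Closest to Kcnq5 were Parvb, an integrin-linked adaptor gene, at 0.35, Rnf32 at 0.439 and the Wnt receptor gene Fzd3 at 0.45. The closest to Kcnt2 were 3 T-cell receptor alpha variable segments on chromosome 14, Trav6-7-dv9, Trav13-2 and Trav15-2-dv6-2, at 0.324 to 0.516. Dennd6a, Brsk2 and Tmem156 came closest to Cacna1h at 0.484 to 0.497, and Tmem196, Naip1 and Gpr149 to Gria3 at 0.426 to 0.539. Piezo1, which differed little between groups, had Kif1c, Mcmbp and Ccdc6 at 0.0532 to 0.0595.

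The range of the group means had a median of 0.82 over 138 other ion channel genes and 0.49 over all genes. Among the calcium channel pores, 2 other genes had a region. Cacna1g, a second T-type pore, rose in PTC2 from 938.7 ± 112 to 1649 ± 136 (log2 0.82, limma adjusted p = 1.4e-09). In PTC1 and LD Cacna1g stood at log2 0.20 and 0.24 (adjusted p = 0.0402 and 0.0206), calls lost under either centring and when WT replicate 1 or 3 was left out, and the PTC1 value turned to -0.057 under 1 Mb centring. The PTC1 call was also lost without PTC1 replicate 2 or 3 and in a fit on only the groups compared. The LD call was also lost without LD replicate 2 and when scaled to the same median. Cacna1a, the pore of presynaptic calcium channels, was at 2511 ± 124 in WT and 3000 ± 105 in PTC2 (log2 0.26, adjusted p = 0.000122), a difference that centring on 1 Mb turned to -0.19. In LD Cacna1a was at 2223 ± 87.8 (log2 -0.18, adjusted p = 0.00721, not called after cyclic loess scaling).

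Of the relatives of Kcnt2, Kcnt1 was low in every line, at 26.33 for WT, 34.67 for PTC1, 32 for PTC2 and 29 for LD. Kcnn4, a calcium-activated potassium channel gene of fibroblasts and blood cells, fell in LD from 915.3 ± 50 to 452.3 ± 25.4 (log2 -1.02, adjusted p = 9.83e-12), and in PTC2 to 754 ± 68.1 (log2 -0.28, adjusted p = 0.00306; -0.18 when scaled to the same median). Kcnn1 rose in PTC1 and PTC2 by 0.49 and 0.39 (adjusted p = 2.46e-07 and 7.68e-06), calls lost under 1 Mb centring. Among glutamate receptors Grik4, a kainate receptor subunit, fell in PTC1 from 323 ± 21 to 87.67 ± 16.2 (log2 -1.88, adjusted p = 5.32e-13). In LD Grik4 was at 449.3 ± 66.6 (log2 0.47, adjusted p = 0.00501), a call lost under either centring. Grin3b fell in LD (log2 -0.84, adjusted p = 0.000398).

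Kcnq5 was the only Kcnq gene with a region, and 13 other voltage-gated potassium channel genes had one. Of these 4 rose and 5 fell in PTC1, 3 and 3 in PTC2, and 5 and 1 in LD. Of all genes 33.3% rose and 28.5% fell in PTC1, 37.4% and 16.3% in PTC2, and 16.9% and 29.5% in LD. Kcns1, a silent modifier subunit, rose in all 3 mutants, from 80.67 ± 10.4 to 168 ± 16.5 in PTC1, 244 ± 10 in PTC2 and 242 ± 13.1 in LD (adjusted p = 4.76e-08, 1.36e-11 and 3.49e-11). Kcnh1 fell in PTC1 and PTC2 (log2 -2.39 and -1.48), and Kcng3 rose in LD (1.15). Kcnd1, a gene on chromosome X for a fast-inactivating channel, fell from 657 ± 21 to 313.7 ± 5.03 in PTC1, 526 ± 13.9 in PTC2 and 348.7 ± 45 in LD (log2 -1.06, -0.32 and -0.92, adjusted p = 3.14e-11, 0.00352 and 1.5e-09). Under 1 Mb centring Kcnd1 stood at 0.0048 in PTC2 and 0.008 in LD, and neither was called. Kcnc2, a fast-spiking channel gene, rose in PTC1 from 69.33 ± 14.6 to 141 ± 29.1 and fell to 17 ± 3.46 in PTC2 (adjusted p = 0.00017 and 5.13e-09).

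A wider list held 138 other ion channel genes with a region, from 16 families chosen by gene symbol. In PTC1, 51 rose and 31 fell (37% and 22.5%, against 33.3% and 28.5% of all genes), in PTC2 48 rose and 29 fell (34.8% and 21%, against 37.4% and 16.3%), and in LD 42 rose and 25 fell (30.4% and 18.1%, against 16.9% and 29.5%). The PTC2 counts became 58 and 18 when libraries were scaled to the same median. The median log2 change of the list was 0.12, 0.10 and 0.13, beside 0.03, 0.10 and -0.05 over all genes. The mean of both premature stop lines against LD gave 48 higher and 43 lower genes, 63 and 36 with the same median, where 45.2% and 21.7% of all genes were called. Channel genes had lower start site levels than genes at large, with a WT median of 182.5 against 976.8, and the part of level in these shares was not tested.

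Some of the largest changes in the list were at the same genes in both premature stop lines. In PTC1, Cacna2d3, an auxiliary calcium channel subunit, fell from 1255 ± 37.9 to 87.67 ± 4.04 (log2 -3.82, SE 0.0946, limma adjusted p = 1.58e-23). Cacna2d3 also fell in PTC2, to 317 ± 32.4 (log2 -1.99, adjusted p = 8.55e-17), and less in LD, to 946.7 ± 95.7 (log2 -0.41, adjusted p = 0.000682). The glycine receptor gene Glrb (-2.81) and Kcnh1 were the next falls in PTC1, and Ryr1 (2.65, and 1.49 with a pseudocount of 10), Panx1 (2.30) and the epithelial sodium channel gene Scnn1a (2.06) the largest rises. Scnn1a rose in PTC2 as well, from 58.67 ± 9.29 to 292.7 ± 30.7 (log2 2.31, adjusted p = 2.32e-12). Its LD level was 54.67 ± 16.8. Kcns1 and the muscle sodium channel gene Scn4a (1.58) were the other rises in PTC2, and Hcn2 (-1.98) and Kcnc2 (-1.97) the other falls. In LD, Gabre, a GABA receptor subunit gene on chromosome X, fell from 573.3 ± 46.5 to 20.33 ± 2.08 (log2 -4.75, adjusted p = 1.09e-23). Cacng1 (-1.29) and Clcn5 (-1.14, and -0.21 after 1 Mb centring) were the other falls in LD, and Gjd3 (2.07), the pacemaker channel gene Hcn4 (1.79) and Kcnh2 (1.63) the rises.

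**Figure D4:**
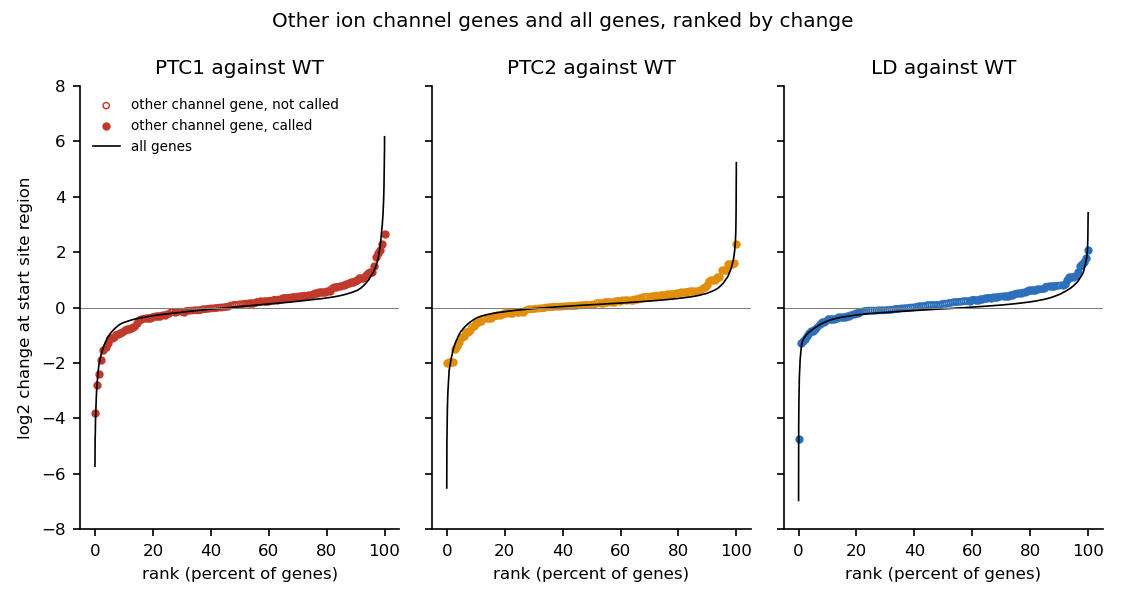
Log2 change against WT at the start site region of 138 other ion channel genes, ranked (filled points called at a limma adjusted p under 0.05, open points not called), with all genes ranked in the same way (line). Channel genes lie above the line over much of the LD panel, where 30.4% rose against 16.9% of all genes, and the lowest LD point is Gabre at -4.75.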

How the data were processed

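The deposited table holds a score per region and library over 1 common set of 81995 regions. By its values the authors scaled read counts by 1 factor per library and rounded them, since whole numbers are missing or doubled at regular steps. The fraction of a region inside the gene body and the distance to the start site are also deposited by the authors, per the file headers. Per the submitters' processing notes, the build was mm10 and the tools named, without role, were DESeq2 1.30.1, Picard 2.25.5, STAR 2.7.10a and Trimmomatic 0.39. Neither peak caller nor Tn5 shift is given in the sources used. These steps decide where a region ends and so how many reads it holds.

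The test was limma (version 3.58.1, R 4.3.3), run on log2(value + 1) with 1 coefficient for each group, all 12 libraries together and a trended prior, on 81985 regions with a mean of 5 or more, with Benjamini-Hochberg adjustment over all of them and a call at 0.05. The fit was tested on simulated data. A log2 difference or change is on that scale and understates changes at low levels, and ratios are of group means. Each gene was read at its region nearest the start site. The same numbers 1 to 3 in each group were not used to pair libraries in the main fit. Named channel genes were, per comparison with WT, the 3 largest rises and falls among called genes with no overlap with WT and a higher mean of at least 20, with the relatives of the 7 genes. Neighbours were taken from the nearest named genes by position, of which not all are reported here, and the regions singled out inside gene bodies were chosen after their values were seen. The members and lists were chosen with earlier results of these data known. Alternatives were another pseudocount, filter, scaling, centring, a replicate block, a fit on fewer groups, another region per gene, other windows and leaving out each library. Intervals from depth were not computed, because the values are scaled.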

Additional observations from a re-analysis of the deposited data

Results flagged for a closer look

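At some regions every library of 1 mutant line lay above all 3 WT libraries and every library of another lay below them. At the Kcnq5 start site PTC1 and PTC2 lay above and LD below, with differences between the lines' log2 changes of 5.06 (PTC1 and LD) and 3.71 (PTC2 and LD). At the Piezo1 region inside the gene the same pattern had differences of 0.21 and 0.23.

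Among the other channel genes, only those named for the largest changes were searched for this pattern. There PTC1 lay above and PTC2 below WT at Gabre (1.07), Kcnc2 (2.98) and Panx1 (4.26). PTC1 lay above and LD below at Gabre (5.17). LD lay above and PTC1 below at Glrb (3.79), Hcn2 (1.61) and Hcn4 (3.08), and LD above and PTC2 below at Hcn2 (2.81). These differences between lines were not tested, and the lines share the same WT libraries.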

How the results depend on the processing

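Of the alternatives for the wider channel list and the 500 kb windows, 1 each moved a count or share by over 1.5 times. Scaling to the same median took the genes lower in PTC2 from 29 to 18, and windows of 250 kb took the share of regions lower in LD from 17.9% to 11.4%. Signs of called values turned under centring only: under 1 Mb centring at Piezo1 (-0.23 in PTC1, -0.088 in PTC2), Cacna1a (-0.19 in PTC2), Cacna1g (-0.057 in PTC1), Kcnd1 (0.0048 in PTC2, 0.008 in LD), Cdt1 beside Piezo1 (-0.081 and -0.06, from 0.32 and 0.30) and Napg (0.11 and 0.052), and under chromosome centring at Napg (0.17 and 0.078). Beyond this construction the cause was not tested. Leaving out a library gave 43 to 53 higher and 28 to 31 lower channel genes in PTC1. The libraries' deviations correlated by -0.004 to 0.045 between same-numbered libraries of different groups, and by -0.04 to 0.022 between differently numbered ones. These values are small, and the labels do not say whether same-numbered libraries were handled together. With the replicate block 52 and 32 channel genes were called in PTC1, against 51 and 31. Values under about 20 rest on few reads.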

Other observations

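The channel families below were chosen after their values were seen. Of 5 genes for HCN and CNG channels, which are opened by cyclic nucleotides, 3 fell in PTC1, 1 rose and 2 fell in PTC2, and 3 rose in LD (limma adjusted p under 0.05, with 61.8%, 53.8% and 46.4% of all genes called). By direction, 33.3% of all genes rose and 28.5% fell in PTC1, 37.4% and 16.3% in PTC2, and 16.9% and 29.5% in LD. Of 13 chloride and anion channel genes, 6 rose and 1 fell in PTC1, 5 and 2 in PTC2, and 2 and 6 in LD. Of 7 inward rectifier potassium channel genes, 3 rose and 1 fell in PTC1, 4 and 1 in PTC2, and 4 rose in LD.

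Group means ranged over a log2 of 2 or more at 16 of the 138 other channel genes (11.6%, against 7.89% of all genes), a description with no test. Among them, the acid-sensing channel gene Asic1 had means of 93.33 for WT, 33 for PTC1, 66 for PTC2 and 154 for LD, and Kcne4, an auxiliary potassium channel subunit, 12.67, 35.67, 13.67 and 5.333.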
